A study of Drosophila melanogaster with 42 samples.

Results

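The odorant, gustatory and ionotropic receptor genes of Drosophila melanogaster were examined in male offspring (F1) of fathers that had or had not been exposed to restraint stress. A gene was included when its symbol was Orco or began with Or, Gr or Ir followed by a number and a letter, which gave 178 of the 15061 rows in each of the 4 deposited tables. These were 60 odorant receptor genes (Or, with Orco), 59 gustatory receptor genes (Gr) and 59 ionotropic receptor genes (Ir). All 178 symbols matched a gene identifier of the BDGP6 annotation, in which all of them are protein-coding.

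Odorant receptors are membrane proteins of olfactory neurons in the antenna and maxillary palp, and each works in a channel together with the coreceptor Orco. Gustatory receptors belong to the same superfamily and respond to sugars, bitter compounds and carbon dioxide in taste organs of the mouthparts, legs and wings. Ionotropic receptors are relatives of ionotropic glutamate receptors, and act in smell, taste, temperature and humidity sensing with the coreceptors Ir25a, Ir8a, Ir76b and Ir93a. Most receptors are used by few neurons, so their messenger RNA is dilute in a whole head or body.

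All fathers, either w1118 (the white-eyed strain used as wild type) or dATF-2KO (a knockout of the transcription factor dATF-2), were mated with w1118 females. Restrained fathers had been held between sponge plugs in 3 sessions of 10 h, and fathers of the control groups in 0 sessions. Poly(A) RNA was prepared from pools of 50 sons, labelled as 5 to 6 days old, after heads had been broken off frozen flies by shaking. Control fathers were kept unrestrained without medium. The labels list 42 libraries, of which 30 could be matched to columns: 5 restrained and 5 unrestrained libraries each for heads of sons of w1118 fathers, heads of sons of dATF-2KO fathers and body without head of sons of dATF-2KO fathers. For body without head of sons of w1118 fathers, with 6 libraries per group in the labels, the 12 library columns carried neither a sample nor a group name, and only the authors' mean of the restrained group was used. The dATF-2KO line is 1 targeted allele carried by the father, and the sons had w1118 mothers. Nothing in the labels says whether the pools came from separate crosses, so the spread between pools, on which all p-values rest, may be partly technical.

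Values were FPKM (fragments per kilobase of transcript per 1000000 mapped fragments), scaled by the authors within each table. Among receptor genes with low values, 1 fragment was worth a median of 0.0456, 0.0511 and 0.0521 FPKM in the 3 tables with libraries, so the level of 0.5 FPKM used below to call a gene detected corresponded to about 11.0, 9.79 and 9.60 fragments in a library. The paper describes the dATF-2KO allele as lacking the whole gene. Atf-2 itself lay between 66.7 and 75.0 FPKM in all 20 head libraries of both father genotypes. In w1118 heads its ranges were 71.7 to 74.7 FPKM (unrestrained) and 66.7 to 69.9 FPKM (restrained), without overlap (5.1% of all genes). In dATF-2KO heads its ranges were 69.9 to 75.0 and 69.1 to 73.0 FPKM. It lay between 9.93 and 13.1 FPKM in body without head of sons of dATF-2KO fathers, and the authors' w1118 mean was 22.5 FPKM, a difference between separately scaled tables that was not tested. In heads, 16 of 16 photoreceptor genes were detected, with the rhodopsin gene ninaE at a mean of 19910 and 20524 FPKM, and the testis gene Mst87F was at 2.65 and 1.34 FPKM. In body without head of sons of dATF-2KO fathers, ninaE lay between 0.0506 and 0.428 FPKM, whereas the authors' mean for the w1118 body table was 111 FPKM. The body library restrained 3 of dATF-2KO fathers stood apart in Yp1, a yolk protein gene of adult females, at 486 FPKM against 0.0422 to 0.428 FPKM in the other 9 libraries. Selected values without this library are given below.

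Marker genes of the antenna, where most odorant receptors act, ranged widely in level in the head libraries, and a few of them varied between libraries. Obp83a and Obp83b, odorant-binding protein genes of antennal support cells, had means of 1.98 and 2.53 FPKM in heads of sons of w1118 fathers. They ranged from 0.291 to 4.15 and from 0.288 to 5.97 FPKM between libraries there, and from 0.162 to 7.01 and from 0.187 to 10.1 FPKM in heads of sons of dATF-2KO fathers. Of 21 antennal support and binding protein genes, 16 were detected in each head table, with a median of 5.35 and 5.23 FPKM, whereas 9 neuron markers had medians of 49.0 and 55.6 FPKM. Other genes of this list were steadier in w1118 heads, such as lush at 7.65 to 10.3 FPKM and Snmp1 at 4.95 to 6.15 FPKM. Snmp2 ranged from 12.1 to 14.2 FPKM and Obp56d from 519 to 573 FPKM there. All of these were also detected in dATF-2KO body, with means of 2.62, 7.26, 11.7 and 197 FPKM in the same order. The gene a10, at 0.159 FPKM there, ranged from 2.82 to 8.49 FPKM in w1118 heads and from 2.44 to 8.35 FPKM in dATF-2KO heads. Whether antennae stayed with the shaken heads was not tested. As in any bulk sample, fewer cells of a type and less RNA per cell cannot be told apart.

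Of the 178 receptor genes, 33 were detected in heads of sons of w1118 fathers and 35 in heads of sons of dATF-2KO fathers, and 31 of these were shared. The 31 comprised 11 odorant, 10 gustatory and 10 ionotropic receptor genes. In body without head, 32 were detected in the dATF-2KO table and 28 in the authors' mean of the w1118 table, of which 27 were shared, namely 6 odorant, 13 gustatory and 8 ionotropic receptor genes. Detection in all 4 tables was found for 13 genes (2 odorant, 6 gustatory and 5 ionotropic receptors) and in none for 126. Over all rows, 71.0%, 71.3%, 85.0% and 85.8% were detected in the w1118 head, dATF-2KO head, w1118 body and dATF-2KO body tables, against 18.5%, 19.7%, 15.7% and 18.0% of the receptor genes.

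Many detected receptor genes lie on a locus with another gene of far higher FPKM. For 126 of the 178 genes no other row overlapped the locus given in the tables (the span over which Cufflinks assigned fragments jointly), no exon base was shared with another BDGP6 gene, and the gene was not within an intron of another one. These are called genes with a locus of their own, and the other 52 shared or nested genes. In heads of sons of w1118 fathers, 11 of the 126 (8.73%) and 22 of the 52 (42.3%) were detected, and in dATF-2KO body 9 (7.14%) and 23 (44.2%). In the head tables, 18 and 20 detected receptor genes had another row on their locus, and in each case the highest such row exceeded the receptor, with a median ratio of 11.3 and 12.7 between their FPKM. In the w1118 and dATF-2KO body tables this held for 18 of 20 and 19 of 21 genes, with a median ratio of 13.9 and 11.5 and a lowest ratio of 0.0985 and 0.0573. The highest of up to 16 rows was taken, and receptor genes that were not detected were not compared in this way. A link between such rows and detection was not tested. Whether fragments were counted by strand is not stated, so reads of overlapping or antisense genes cannot be told apart, and values of shared or nested genes are uncertain.

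**Figure D1:**
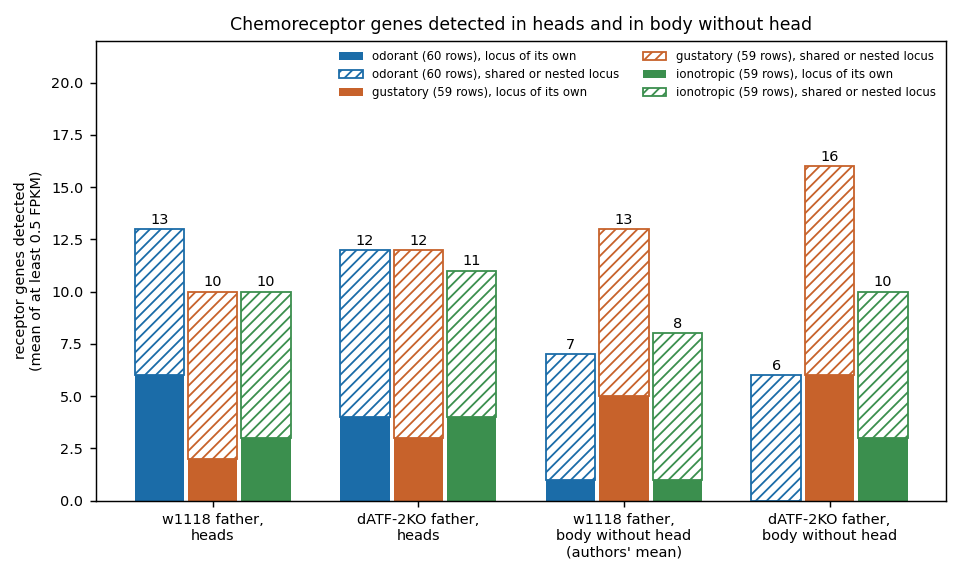
Number of receptor genes detected, at a mean of 0.5 FPKM or more, in each of the 4 tables, by family, with filled bars for genes with a locus of their own and hatched bars for shared or nested genes. Odorant receptor genes numbered 13 and 12 in the head tables and 7 and 6 in the body tables, and gustatory receptor genes numbered 10 and 12 in heads and 13 and 16 in body.

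Of the coreceptor genes, 3 of 5 were detected in both head tables. Orco, on chromosome 3R (1232905 to 1236191 in dm3, minus strand, a locus of its own), had a mean of 2.02 ± 0.24 FPKM in w1118 heads and 1.88 FPKM in dATF-2KO heads over 10 libraries each. Ir25a, on chromosome 2L, stood at 1.73 and 1.76 FPKM, and Ir76b, on chromosome 3L, at 1.87 and 2.07 FPKM. Ir93a, needed for humidity and temperature sensing together with Ir25a, was just below the limit at 0.410 and 0.422 FPKM. Ir8a, the coreceptor of acid-sensing antennal neurons, was at 0.0408 and 0.0322 FPKM, and listed at 0 in 1 and 3 of the 10 libraries. The locus of neither is its own. In body without head, Ir25a was the coreceptor gene with the highest value, at 0.588 FPKM in sons of dATF-2KO fathers and 0.454 FPKM in the authors' w1118 mean, and Orco was at 0.249 and 0.196 FPKM.

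Among odorant receptor genes with a locus of their own, Or63a had the highest head level. Or63a, described as a larval receptor, ranged from 3.14 to 4.53 FPKM in w1118 heads and from 2.72 to 3.49 FPKM in dATF-2KO heads, and from 0.0909 to 0.339 FPKM in dATF-2KO body. Or13a had head means of 1.81 and 1.47 FPKM, and Or67d, the antennal receptor for the male pheromone cis-vaccenyl acetate, of 1.29 and 1.18 FPKM. Of other antennal pheromone receptors, Or47b was near 0 at 0.00982 and 0.0119 FPKM, and Or88a at 0.0234 and 0.0427 FPKM. The locus of Or88a is not its own, as an antisense RNA gene covers 85.9% of its exon bases. Of 38 odorant receptor genes of the adult antenna, 6 and 5 were detected in the 2 head tables. Of 7 of the maxillary palp 1 and 1 were detected, and of 13 described in larvae 5 and 5. Among the larval genes detected in heads, only Or63a has a locus of its own. Or45a, Or1a, Or45b and Or83a are shared or nested, as are the antennal Or43b, Or10a and Or59b and the palp gene Or71a. CG1172, on the opposite strand of 100% of the exon bases of Or83a, was at 16.1 and 16.8 FPKM in heads.

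The highest odorant receptor value in heads belonged to Or43b, an antennal receptor, at 12.5 and 11.8 FPKM. Its locus is shared with lin19 (Cullin-1, a ubiquitin ligase subunit) on the opposite strand, which covers 40.7% of its exon bases and stood at 55.9 and 55.4 FPKM. Or45a was at 2.58 and 3.41 FPKM within an 80.2 kb locus that also holds CG12158, at 2915 and 2731 FPKM. Or1a, at 1.83 and 2.60 FPKM, shares a locus of 202 kb with 16 other rows. Or45b, a larval receptor detected in all 4 tables, was at 1.98 and 1.71 FPKM in heads and 1.41 FPKM in dATF-2KO body, and an antisense RNA gene of BDGP6 covers 100% of its exon bases. In body without head, Or59c and Or59b were at 7.11 and 6.65 FPKM in sons of dATF-2KO fathers and 2.34 and 2.90 FPKM in the authors' w1118 mean, on a locus with skpF at 76.8 and 67.4 FPKM. Or23a was at 2.71 FPKM in dATF-2KO body and listed at 0 in 18 of 20 head libraries, and Prosbeta4R2, a proteasome subunit gene sharing exon bases with it, went from 0.127 and 0.0979 FPKM in heads to 91.0 FPKM in dATF-2KO body. Or94a, a larval receptor inside Nha2, was at 1.21 FPKM in dATF-2KO body and under 0.2 FPKM in both head tables. The neighbouring genes named above and below were chosen after their values were seen.

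Gustatory receptor genes were the largest detected family in body without head. Of the 6 with a locus of their own in dATF-2KO body, Gr98a on chromosome 3R (23313649 to 23315690 in dm3, plus strand) was highest, ranging from 2.04 to 3.73 FPKM, against 0 to 0.192 and 0 to 0.222 FPKM in the 2 head tables. The authors' w1118 body mean for Gr98a was 1.30 FPKM. Gr59f, Gr59a and Gr59e, on chromosome 2R, were at 0.915, 0.776 and 0.767 FPKM in dATF-2KO body and at 1.13, 0.774 and 0.775 FPKM in the authors' w1118 mean, and the head means of all 3 were at or under 0.107 FPKM. Gr66a, the receptor that marks bitter-sensing neurons, was the only receptor gene with a locus of its own that was detected in all 4 tables, at 0.603, 0.665, 0.575 and 0.630 FPKM in the order of the plot of detected genes.

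In heads, gustatory receptor genes with a locus of their own were few. Gr28b, which functions in warmth and light sensing, had means of 0.877 and 1.0 FPKM and Gr33a, a broadly used bitter receptor, of 0.494 and 0.559 FPKM. Of 12 bitter receptor genes, 4 and 5 were detected in heads and 4 and 5 in the w1118 and dATF-2KO body tables, and of 8 sugar receptor genes 2 and 2 in heads and 3 and 3 in body. Gr64e and Gr64f, sugar and glycerol receptors, were at 1.98 and 0.978 FPKM in dATF-2KO body and at 0.486 and 0.163 FPKM in dATF-2KO heads. Neither has a locus of its own. Gr64e shares 99.1% of its exon bases with Gr64d on the same strand. Gr64f shares 3.67% with CG11593 on the opposite strand, which was at 7.87 FPKM in dATF-2KO body and 17.0 FPKM in dATF-2KO heads. The carbon dioxide receptors Gr21a and Gr63a, whose neurons lie in the antenna, were at 0.0361 and 0.111 FPKM in w1118 heads and at 0.0260 and 0.0824 FPKM in dATF-2KO heads. Gr39a, at 6.56 and 6.85 FPKM in heads, lies within an intron of the gene listed as Mio (Mondo, a glucose-sensing transcription factor), which stood at 38.5 and 36.1 FPKM. Gr10a, at 0.809 and 0.671 FPKM in heads, shares all its exon bases with Or10a. Gr43a, a fructose receptor, was at 1.73 and 1.61 FPKM in heads and 1.68 FPKM in dATF-2KO body, where the overlapping CG11107 was at 23.6 FPKM. Gr8a, a receptor for the plant toxin L-canavanine, was at 0.106 and 0.212 FPKM in heads and 2.0 FPKM in dATF-2KO body, while CG12121 on its opposite strand was at 31.3, 31.2 and 34.2 FPKM. Gr32a, a receptor used in bitter taste and male courtship, was at 2.99 FPKM in dATF-2KO body, where CG6230, which overlaps its exons on the opposite strand, was at 75.5 FPKM.

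Among ionotropic receptor genes beside the coreceptors, Ir68a, a moist-sensing receptor, had the highest head level of those with a locus of their own, at 2.35 and 2.20 FPKM. Of 13 antennal ionotropic receptor genes, 3 and 4 were detected in the head tables, and Ir64a and Ir84a, an acid and a food-odour receptor, were at 0.0101 and 0.0145 FPKM in w1118 heads. Ir76a, at 11.4 and 10.5 FPKM in heads, and Ir62a, at 7.34 and 6.80 FPKM, were the highest values of the family and are both shared or nested genes, on loci with HLH106 (SREBP, a lipid-synthesis regulator) at 105 and 106 FPKM and with CG12090 at 23.8 and 22.6 FPKM. Ir51b, inside the gene row, was at 2.57 and 2.39 FPKM. In dATF-2KO body, Ir94d was the highest receptor gene of all at 12.1 FPKM, with CG17380 on the opposite strand of 24.1% of its exon bases at 29.8 FPKM, and the head means of both were at or under 0.250 FPKM. Ir75d was at 6.84 FPKM, with CG14077, which shares 90.7% of its exon bases on the same strand, at 103 FPKM. With a locus of its own, Ir7c, a salt-taste receptor, was at 1.70 FPKM in dATF-2KO body, 1.05 FPKM in the authors' w1118 mean and at or under 0.113 FPKM in every head library.

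The genes nearest to the limit of 0.5 FPKM were Or71a at 0.503 FPKM inside and Gr33a at 0.494 FPKM outside it in w1118 heads, and Or71a at 0.546 and Or85f at 0.499991 FPKM in dATF-2KO heads. In body without head they were Or85f at 0.524 and Ir25a at 0.454 FPKM in the authors' w1118 mean, and Gr47a at 0.539 and Or88a at 0.493 FPKM in the dATF-2KO table. The 6 genes detected in only 1 of the head tables, 2 in w1118 (Or22a and Or85f) and 4 in dATF-2KO (Gr33a, Gr68a, Ir31a and Or59b), lay at or under 1.20 FPKM in both.

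Heads and body without head of sons of dATF-2KO fathers were set side by side for the 50 receptor genes detected in either table. The tables were scaled separately, so the difference was not tested. Every head library exceeded every body library for 19 genes (38.0%, against 29.4% of the 13429 genes detected in either table), namely 8 odorant, 4 gustatory and 7 ionotropic receptors. Every body library exceeded every head library for 18 genes (36.0%, against 46% of all genes), namely 4 odorant, 9 gustatory and 5 ionotropic receptors. After rescaling each library to a summed FPKM of 1000000, which was added after seeing the data, 28 of 59 detected receptor genes were higher in heads and 17 in body, and 0 genes changed sides. Over all genes the rescaling turned the split from 3946 higher in heads and 6174 in body to 6224 and 4536 of 13527. Without the body library restrained 3, 19 of 51 receptor genes were higher in heads and 19 in body. The split over all genes is not given here for that setting, so these counts have no share to be read against.

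**Figure D2:**
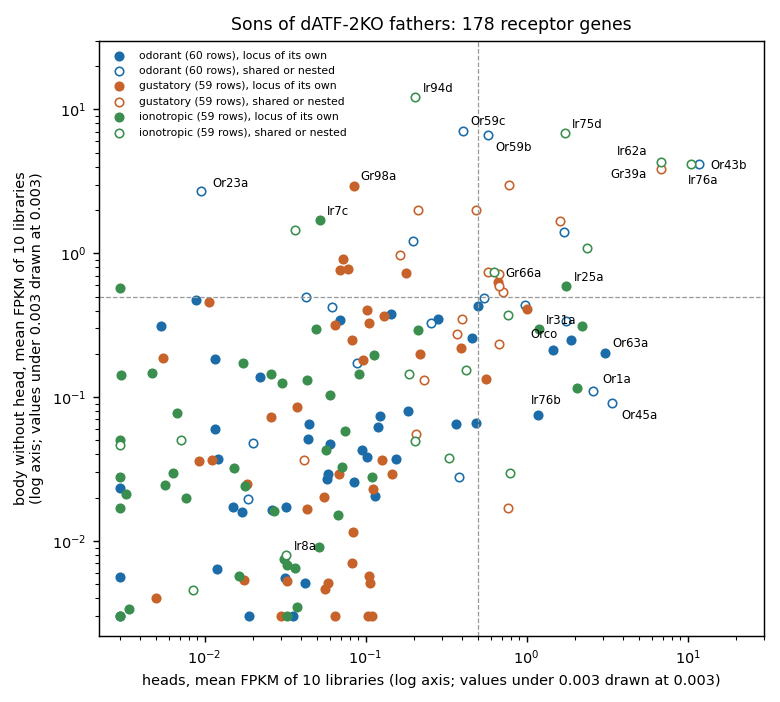
Mean FPKM of the 178 receptor genes in body without head against heads for sons of dATF-2KO fathers, on log axes, with dashed lines at 0.5 FPKM, filled points for genes with a locus of their own and open points for shared or nested genes. Orco, Ir76b and Or63a lie in the lower right, Gr98a and Ir7c in the upper left, and the highest points on both axes, such as Or43b and Ir76a at 11.8 and 10.5 FPKM in heads, are open.

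Summed over the receptor genes with a locus of their own, odorant and ionotropic receptors were higher in heads and gustatory receptors in body, whereas sums over all receptor genes depended on the scale. The odorant receptor sum ranged from 10.3 to 12.1 FPKM in the 10 dATF-2KO head libraries and from 3.90 to 5.09 FPKM in the 10 body libraries, and the ionotropic receptor sum from 7.67 to 10.1 and from 5.45 to 7.46 FPKM. The 7.46 FPKM was that of restrained 3, the library with high Yp1, and the next highest body library was at 6.45 FPKM. The gustatory receptor sum was lower in heads, from 4.82 to 6.31 FPKM, than in body, from 9.98 to 11.6 FPKM. Rescaled to 1000000 per library, the sums ranged from 15.1 to 17.5 and 3.58 to 4.89 (odorant), 10.7 to 13.9 and 5.07 to 7.24 (ionotropic) and 6.84 to 8.70 and 9.26 to 11.1 (gustatory), so that heads and body did not overlap on either scale for any family. Over all genes of a family, shared and nested ones included, the ionotropic receptor sum was 32.1 to 35.2 FPKM in heads and 34.3 to 41.1 FPKM in body, with overlap and a higher median in body, but 44.8 to 51.5 and 33.7 to 39.8 after rescaling. The odorant receptor sum was 34.9 to 38.1 FPKM in heads and 28.5 to 33.6 FPKM in body, and 49.1 to 54.1 and 27.0 to 32.6 after rescaling. The gustatory receptor sum was 19.5 to 22.4 FPKM in heads and 25.0 to 30.3 FPKM in body, but 27.9 to 32.3 and 24.2 to 28.9 after rescaling, with overlap and a higher median in heads.

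Paternal restraint was then compared within each table by limma on log2(FPKM + 0.5), with a gene called at an adjusted p (Benjamini-Hochberg over all genes of the table) under 0.05 and a change of 1.4-fold or more. All fold changes below are on this scale, which understates changes of low genes. No receptor gene was called in heads of sons of w1118 fathers (0 of 33 tested, against 0.0842% of 10687 genes), in heads of sons of dATF-2KO fathers (0 of 35, against 0.00932% of 10732) or in their body without head (0 of 32, against 0.124% of 12924). At an unadjusted p under 0.05 there were 5 receptor genes in w1118 heads (15.2%), 3 in dATF-2KO heads (8.57%) and 0 in dATF-2KO body, where 15%, 9.99% and 7.27% of all genes reached it. The median log2 change of the tested receptor genes was -0.00099, 0.01 and -0.041, beside -0.009, -0.0018 and -0.016 for all genes. The 95% interval lay within 1.4-fold in both directions for 27 of 33, 31 of 35 and 21 of 32 receptor genes.

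The coreceptors showed no call in heads with paternal restraint. Orco measured 2.01, 1.93, 2.26, 2.35 and 2.28 FPKM in unrestrained and 1.79, 2.04, 2.03, 1.54 and 2.0 FPKM in restrained libraries of w1118 fathers, so the groups overlapped. The log2 change was -0.17 ± 0.08 (SE; limma adjusted p = 0.381), and in dATF-2KO heads Orco measured 1.76, 2.17, 1.38, 2.27 and 1.75 FPKM against 2.01, 1.69, 1.89, 2.14 and 1.70 FPKM. Ir25a had group means of 1.72 and 1.74 FPKM in w1118 heads and 1.90 and 1.62 FPKM in dATF-2KO heads, the latter a log2 change of -0.19 ± 0.10 (SE; limma adjusted p = 0.575). For Ir76b the means were 1.91 and 1.83 FPKM and 2.18 and 1.96 FPKM, the latter a log2 change of -0.13 ± 0.07 (SE; limma adjusted p = 0.585).

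The smallest p-value of a receptor gene belonged to Or45a in heads of sons of w1118 fathers. Its 5 unrestrained libraries measured 2.59, 2.17, 1.91, 2.19 and 2.23 FPKM and its 5 restrained libraries 2.91, 3.01, 3.00, 2.90 and 2.86 FPKM. All restrained libraries were above all unrestrained ones, as for 2 of 33 receptor genes and 5.1% of all genes in either direction. The log2 change of 0.34 ± 0.07 (SE) had a limma adjusted p of 0.0453 but stayed below the 1.4-fold limit. Of 17 alternatives, 5 kept the adjusted p under 0.05, with a range of 0.0254 to 0.250. Among these 5 is the setting with no fold limit, which is the same fit and so has the same adjusted p. In heads of sons of dATF-2KO fathers, Or45a measured 3.20, 3.23, 3.10, 3.19 and 3.15 FPKM against 3.34, 3.82, 3.78, 3.57 and 3.78 FPKM, again without overlap (2 of 35 receptor genes, 2.14% of all genes), with a log2 change of 0.18 ± 0.05 (SE; limma adjusted p = 0.217). On the same locus, CG12158 had log2 changes of 0.19 ± 0.06 (SE) in w1118 heads and -0.0018 ± 0.06 (SE) in dATF-2KO heads. CG13739 and CG13954, within whose introns Or45a lies, had log2 changes of 0.026 ± 0.04 and -0.024 ± 0.05 (SE) in w1118 heads. In dATF-2KO heads these were 0.058 ± 0.04 and -0.016 ± 0.04 (SE). The part of these genes in the value of Or45a was not tested.

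Gr39a and Gr64c followed in w1118 heads, and neither was called. Gr64c is a member of the sugar receptor cluster on chromosome 3L, with a locus of 3.43 kb, and in BDGP6 it shares all its exon bases with Gr64b. Gr64b has no row among the 178 genes, so Gr64c and Gr64b cannot be told apart in these values. Gr64c measured 0.568, 0.835, 0.535, 0.614 and 0.478 FPKM without and 0.954, 1.11, 0.727, 0.857 and 0.761 FPKM with paternal restraint, with overlap, for a log2 change of 0.32 ± 0.12 (SE; limma adjusted p = 0.251). Gr39a had means of 6.08 and 7.04 FPKM, a log2 change of 0.20 ± 0.07 (SE; limma adjusted p = 0.227), while its host gene Mio had a log2 change of -0.042. Gr47a, a bitter receptor nested in a 94.8 kb locus with 13 other rows, was the other gene without overlap, at 0.152 to 0.546 FPKM against 0.556 to 0.694 FPKM. Its mean was 0.387 FPKM unrestrained and 0.629 FPKM restrained, so it passed the 0.5 FPKM filter only through the restrained libraries. That selection bears on its lack of overlap and on its place among the 5 receptor genes with an unadjusted p under 0.05. With a locus of its own, Or13a had an estimate in the other direction, with means of 2.0 and 1.63 FPKM and a log2 change of -0.24 ± 0.10 (SE; limma adjusted p = 0.271). Of the 9 neuron markers, 5 had an unadjusted p under 0.05 and a positive estimate in w1118 heads, and 5 in dATF-2KO heads. Of the 16 photoreceptor markers, 10 had an unadjusted p under 0.05 with a negative and 1 with a positive estimate in w1118 heads, and 0 in dATF-2KO heads. In w1118 heads 1 neuron marker (cac, a calcium channel gene, log2 change 0.32, limma adjusted p = 0.0095) and 6 photoreceptor markers (among them ninaC, log2 change -0.16, limma adjusted p = 0.00387) had an adjusted p under 0.05, all below 1.4-fold, so 0 of either list were called. The part of these cell types in the receptor values was not tested.

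In heads of sons of dATF-2KO fathers, the largest estimate belonged to Ir31a, an antennal ionotropic receptor gene on chromosome 2L (10405565 to 10408197 in dm3, plus strand) with a locus of its own. It measured 0.811, 0.575, 0.595, 1.02 and 0.554 FPKM in unrestrained and 1.85, 0.980, 2.32, 1.19 and 2.08 FPKM in restrained libraries. The groups overlapped only between restrained 2 and unrestrained 4, and the log2 change was 0.82 ± 0.20 (SE, 95% interval 0.39 to 1.26) with a limma adjusted p of 0.198. In w1118 heads Ir31a was under the detection limit, at 0.448, 0.35, 0.379, 0.362 and 0.425 FPKM against 0.559, 0.728, 0.394, 0.438 and 0.464 FPKM. The antennal genes Obp83a and Obp83b had log2 changes of -0.061 ± 0.70 (SE) and 0.61 ± 0.74 (SE) in the dATF-2KO heads. Of the 16 antennal support and binding protein genes tested there, 1 had an unadjusted p under 0.05 with a positive and 2 with a negative estimate, and 0 were called. The part of antennal RNA in the value of Ir31a was not tested.

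Or1a, a larval receptor gene on the shared 202 kb locus, was the third gene by p in dATF-2KO heads. It measured 2.50, 2.11, 2.12, 2.26 and 2.46 FPKM against 2.75, 3.53, 2.74, 2.56 and 2.98 FPKM, without overlap, for a log2 change of 0.29 ± 0.08 (SE; limma adjusted p = 0.269). Of the 5 tested odorant receptor genes described in larvae, 1 in w1118 and 2 in dATF-2KO heads had an unadjusted p under 0.05, in each case with a positive estimate and none called. Over all genes, 15% and 9.99% reached that p. The genes counted, Or45a and Or1a, lie on shared loci. Or83a had negative estimates in both tables (-0.22 and -0.16) and Or63a in dATF-2KO heads (-0.039), and the remaining estimates were positive.

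**Figure D3:**
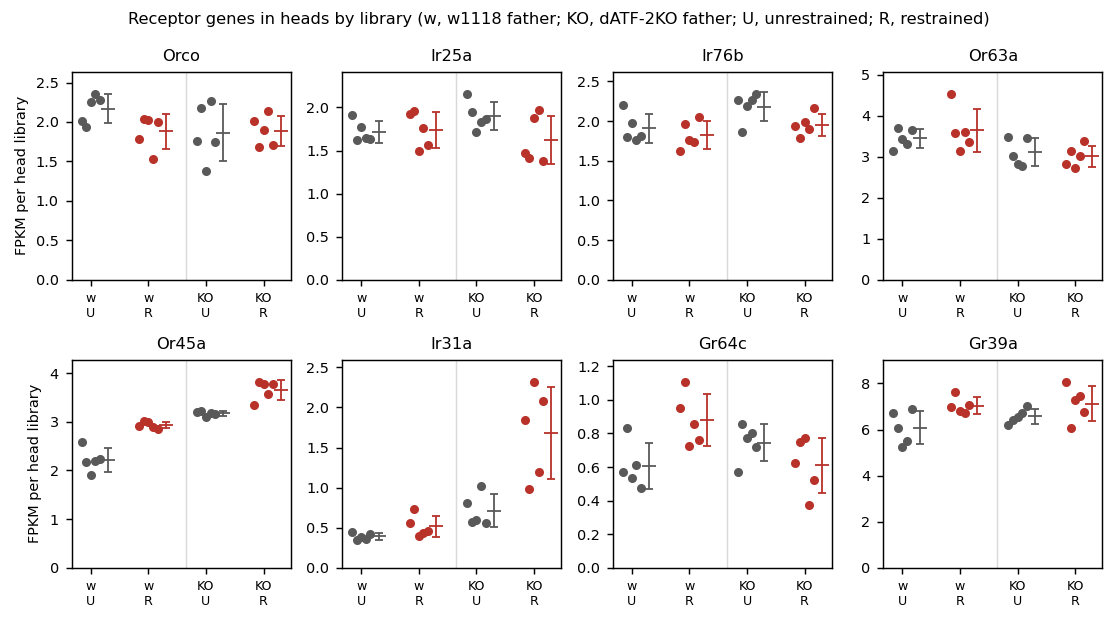
FPKM in each head library for 8 receptor genes, with grey points for unrestrained (U) and red points for restrained (R) fathers of w1118 (w) or dATF-2KO (KO) genotype, and bars for the mean ± SD of 5 libraries. Restrained and unrestrained points separate for Or45a in both father genotypes, overlap for Orco, Ir25a, Ir76b and Or63a, and overlap in part for Ir31a in sons of dATF-2KO fathers.

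In body without head of sons of dATF-2KO fathers, the 3 smallest p-values belonged to Ir76a, Gr59e and Ir75d. Gr59e, with a locus of its own, measured 0.638, 0.790, 1.11, 0.981 and 0.847 FPKM against 0.708, 0.532, 0.550, 0.790 and 0.719 FPKM, a log2 change of -0.24 ± 0.13 (SE; limma adjusted p = 0.746). Ir76a had means of 4.36 and 3.93 FPKM (limma adjusted p = 0.716), and Ir75d of 6.21 and 7.47 FPKM (limma adjusted p = 0.790). Gr98a, the highest gustatory receptor with a locus of its own, measured 3.73, 2.83, 3.00, 3.19 and 2.62 FPKM against 3.20, 2.04, 2.55, 2.60 and 3.66 FPKM, with overlap. No receptor gene had groups without overlap (0 of 32, against 1.96% of all genes). Ir7c was at 3.74 FPKM in restrained 3, the library with high Yp1, and its log2 change was 0.21 ± 0.23 (SE) with and -0.013 ± 0.13 (SE) without that library. Without it, 0 of 34 receptor genes were called, against 11 of 12869 genes. There 1 receptor gene, Ir76a, had an unadjusted p under 0.05, with a limma adjusted p of 0.537. With all libraries kept, 7.27% of all genes reached that p, and the share without restrained 3 is not given here. Leaving it out moved the log2 change of Ir75d from 0.27 ± 0.17 (SE) to 0.36 ± 0.17 (SE; limma adjusted p = 0.736). That of Gr59e became -0.21 ± 0.13 (SE; limma adjusted p = 0.842).

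For body without head of sons of w1118 fathers the restraint comparison was not made, because the libraries of the 2 groups could not be told apart by their column names. Levels in the restrained group were given above as the authors' mean. Whether body receptor genes changed with restraint of w1118 fathers was not analysed here.

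The change with restraint in heads was compared between the 2 father genotypes in 1 fit over all 20 head libraries. Of 36 receptor genes tested, 0 had an adjusted p under 0.05 (0.14% of 10748 genes did) and 4 had an unadjusted p under 0.05 (11.1% of all genes did). The difference of the log2 changes, dATF-2KO minus w1118, was -0.50 ± 0.17 (SE; limma adjusted p = 0.295) for Gr64c, 0.64 ± 0.23 (SE; limma adjusted p = 0.311) for Ir31a and -0.34 ± 0.15 (SE; limma adjusted p = 0.402) for Ir47a, a nested gene on the locus of Gr47a. For Or45a it was -0.16 ± 0.07 (SE; limma adjusted p = 0.427).

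**Figure D4:**
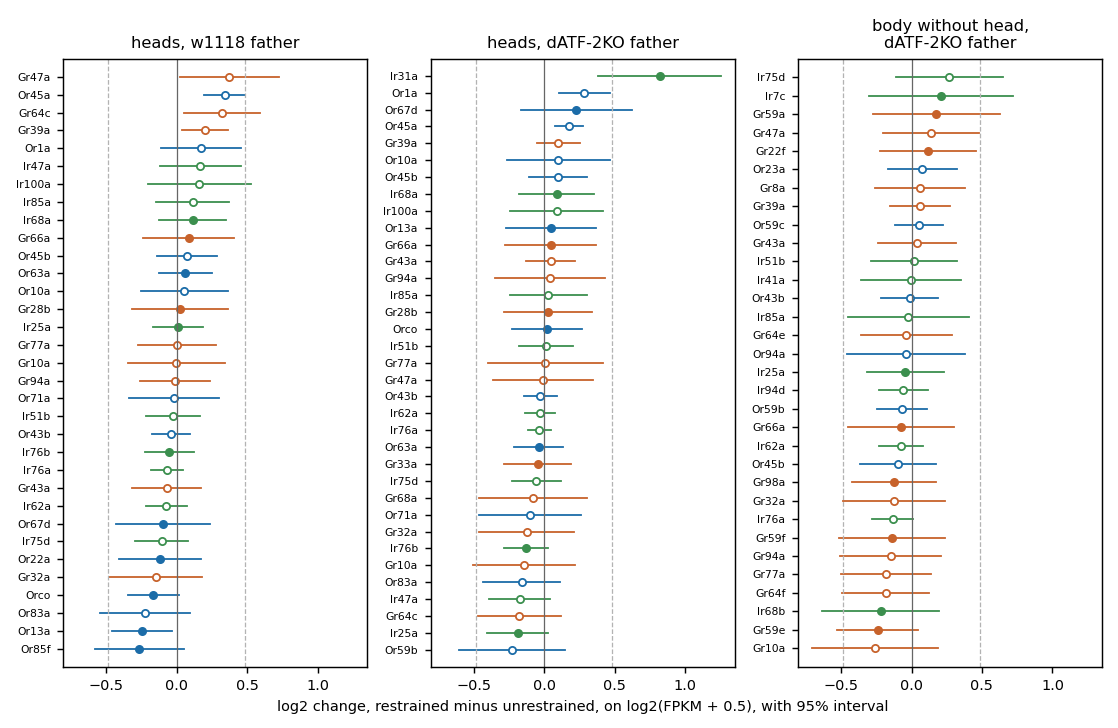
Log2 change with paternal restraint (restrained minus unrestrained, on log2(FPKM + 0.5)) with its 95% interval for every receptor gene tested in heads of sons of w1118 fathers (33), heads of sons of dATF-2KO fathers (35) and their body without head (32), with dashed lines at 1.4-fold and open points for shared or nested genes. Most intervals include 0, and the largest estimate, for Ir31a in dATF-2KO heads at 0.82, has a wide interval.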

How the data were processed

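RNA-seq of poly(A) RNA was mapped by the authors to dm3 with TopHat, and the deposited FPKM values were estimated with Cufflinks and, per the submitters' processing notes, normalized with Cuffnorm, separately for each of the 4 tables. CASAVA is also named there. Their versions and the gene annotation are not stated in these sources. The labels and the paper's methods describe different library kits, only one of which marks strand.

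The authors' fold, p and q columns were not used, nor were 12 library columns of the w1118 body table whose names show no sample. The deposited FPKM mean of its restrained group was used as a level only.

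Genes averaging 0.5 FPKM or more over a table's 10 libraries were tested with limma 3.58.1 (trend) in R 4.3.3 on log2(FPKM + 0.5), restrained against unrestrained, with adjustment over all genes of the table and no replicate block. The difference in heads was an interaction term over both head tables. Calls needed an adjusted p under 0.05 and 1.4-fold (no fold limit for the difference). On simulated data, 81%, 91% and 85% of genes changed 1.5-fold were recovered in w1118 heads (10687 genes), dATF-2KO heads (10732) and dATF-2KO body (12924). These changes were set on the log2(FPKM + 0.5) scale in genes drawn from all tested genes. On that scale a 1.5-fold change in the FPKM of a low gene is smaller, so recovery among receptor genes was not measured.

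Depth was read from low values of receptor genes that were whole multiples of 1 fragment within a tolerance of 0.04, for counts up to 30. Loci are from the tables (dm3), and BDGP6 was used only for names and overlaps. Named genes were the coreceptors, the 5 highest of each family per table, called genes, the 3 smallest p-values per comparison, and examples of the role lists and of the genes detected in body. The gene set, lists and rules were chosen with earlier results of these data known. Or13a, Gr47a, Or67d, Or47b, Or88a, Gr59a, Gr59f and Gr66a were added after their values were seen. Alternatives were another pseudocount, filter, normalization or fold limit, the replicate block and each library left out. Sequences are not reported here.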

Additional observations from a re-analysis of the deposited data

Results flagged for a closer look

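Among 128 groups of 5 libraries of the named receptor genes, 4 held a library far from the other 4, where chance gives about 1 in 20 (6.4 groups). Or43b was at 14.4 FPKM in the w1118 head library restrained 4, with the others at 11.4 to 12.3 FPKM. Gr68a, a receptor of male courtship, was at 1.35 FPKM in the dATF-2KO head library unrestrained 1, with the others at 0.530 to 0.765 FPKM. Ir25a was at 0.827 FPKM in the dATF-2KO body library unrestrained 4, with the others at 0.517 to 0.576 FPKM. Ir7c was at 3.74 FPKM in the dATF-2KO body library restrained 3, with the others at 1.21 to 1.88 FPKM, and this library held Yp1 at 486 FPKM. The part of these libraries' composition in the values was not tested.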

How the results depend on the processing

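With no limit on the fold, 1 receptor gene, Or45a, was called in w1118 heads (adjusted p = 0.0453, log2 change 0.34), and the other alternatives gave 0 receptor genes in each of the 3 restraint comparisons and in the difference between father genotypes. With the same setting 110 in place of 9 of all genes were called in w1118 heads and 5 in place of 1 in dATF-2KO heads. The number of detected receptor genes moved with the limit. At a mean of 1 FPKM it was 18 (w1118 heads), 20 (dATF-2KO heads), 16 (w1118 body) and 19 (dATF-2KO body). At 0.1 FPKM it was 71, 79, 65 and 85, and 70, 69 and 78 genes were above 0 in every library of the tables with libraries. Leaving out 1 library gave 32 to 34, 35 to 37 and 32 to 34 detected genes, and 2 to 8, 1 to 4 and 9 to 16 calls over all genes in the restraint comparisons, against 9, 1 and 16.

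The sign turned for 3 coreceptor estimates close to 0, none of them called. Ir25a in w1118 heads became -0.0045, -0.00045, -0.0011, -0.0189 and -0.0231 without unrestrained 2, 4 and 5 and restrained 1 and 2, Orco in dATF-2KO heads -0.0021 under quantile normalization and -0.058 and -0.015 without unrestrained 3 and restrained 4, and Ir25a in dATF-2KO body 0.023 without unrestrained 4. Leaving out 1 library, these 3 estimates ranged from -0.0231 to 0.0523, from -0.058 to 0.082 and from -0.073 to 0.023.

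Libraries with the same replicate number had deviations correlated at -0.114 to 0.137. With so few pairs this cannot decide whether they shared a cross, day or batch. Their own number was the best match for 1, 0 and 1 of 5 pairs. With the replicate block 0 receptor genes were called, and calls over all genes went from 9 to 0 in w1118 heads. For body without head of w1118 fathers no alternative of the restraint comparison was run, since its groups could not be formed. FPKM values of about 10 fragments limit the precision of genes near 0.5 FPKM.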
